A study of Mus musculus with 12 samples.

Results

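The Krüppel-like factor (Klf) genes described here are Klf2, Klf3, Klf4, Klf5, Klf6, Klf9, Klf10, Klf11, Klf13 and Klf17. They were taken by symbol, with earlier results of these data known, and are 10 of the 17 Klf genes among the 55401 genes counted. RNA-seq libraries came from 8-cell mouse embryos in 4 groups, each library from 10 pooled embryos, to ask how loss of the transcription factors NR5A2 and KLF5 changes the transcriptome. Zygotes of B6129F1 females aged 3 to 5 weeks and B6CBAF1 males received siRNA by microinjection at 8 to 9 hours post-fertilisation (hpf), and all groups also received H2B-EGFP at 150 ng/µl. The groups were control siRNA at 15 µM (control, n = 2), siRNA against Nr5a2 at 5 µM (Nr5a2 KD, n = 3), siRNA against Klf5 at 10 µM (Klf5 KD, n = 3) and both siRNAs together (Nr5a2 Klf5 dKD, here dKD, n = 4), for which the labels name no combined dose. An siRNA injected into the zygote reaches every cell of the embryo and leaves part of the transcript. The labels do not say whether libraries of a group came from separate matings or injection days, so the p-values below measure the spread between these libraries, which may be technical. A library is a pool of whole embryos, so fewer cells of a kind and less RNA per cell cannot be told apart.

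KLF proteins are transcription factors that bind GC-rich and CACCC sequences through zinc fingers at their C-terminal end, and their N-terminal parts decide whether they activate or repress. Klf2, Klf4 and Klf5 are known for maintaining self-renewal of embryonic stem cells, and Klf5 is needed in the embryo for the first lineages of the blastocyst. Klf3 and Klf8 recruit the corepressor CtBP, whereas Klf9, Klf10, Klf11 and Klf13 recruit the SIN3A corepressor, so a family that shares a DNA-binding domain holds both activators and repressors of the same kind of sequence. NR5A2 is an orphan nuclear receptor that binds as a monomer and is active from genome activation onwards.

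The shared part of the family is shown by the coding sequence of the third zinc finger, because the counting, and the specificity of an siRNA, rest on how far these transcripts differ. The 63 bases from the first cysteine codon to the last histidine codon are given in GRCm38, read from GENCODE transcripts, on the strand of each gene. Capitals mark bases that differ from Klf5 at the same position.
Klf5 (chr14:99313258-99313320, plus strand, exon 4 of 4): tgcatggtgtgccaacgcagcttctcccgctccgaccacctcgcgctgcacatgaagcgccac
Klf2 (chr8:72320851-72320913, plus strand, exon 3 of 3): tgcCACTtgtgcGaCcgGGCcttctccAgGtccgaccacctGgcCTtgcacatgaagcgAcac
Klf4 (chr4:55528131-55528193, minus strand, exon 5 of 5): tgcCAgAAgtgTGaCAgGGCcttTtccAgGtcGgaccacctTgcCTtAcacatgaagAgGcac
Klf17 (chr4:117759119-117759181, minus strand, exon 3 of 3): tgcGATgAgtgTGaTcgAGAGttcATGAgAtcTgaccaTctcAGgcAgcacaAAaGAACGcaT
Klf3 (chr5:64829084-64829146, plus strand, exon 6 of 6): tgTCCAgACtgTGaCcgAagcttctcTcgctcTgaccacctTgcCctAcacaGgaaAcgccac
Klf11 (chr12:24660290-24660352, plus strand, exon 4 of 4): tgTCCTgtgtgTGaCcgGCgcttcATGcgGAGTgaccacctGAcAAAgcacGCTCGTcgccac
Klf13 (chr7:63891628-63891690, minus strand, exon 2 of 2): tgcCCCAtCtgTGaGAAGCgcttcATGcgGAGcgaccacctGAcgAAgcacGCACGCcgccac
Over this finger, 15 of the 63 bases differed from Klf5 in Klf2, 17 in Klf3, 21 in Klf4, 27 in Klf11, 28 in Klf13 and 29 in Klf17. Over the 243 bases of the whole zinc-finger domain, identity to Klf5 was highest for Klf3 (73.7%) and lowest for Klf17 (56.4%), and the closest pair of the family was Klf2 and Klf4 (78.2%). The longest run of identical bases that a member's transcripts shared with those of Klf5 was 24 bases in Klf9 and 20 in Klf6, and between 11 and 17 in the other members. The sequence of the Klf5 siRNA was not used here, so whether it matches another member was not tested.

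The libraries held 6676683 to 12560926 counts on genes, with a median of 7598177. Counts of 9 of the 10 members were large enough to be tested in every comparison, and Klf6 in none. The exons of Klf3 share 404 bases (3.59% of its exonic length) with Gm20033 on the opposite strand, and the counting did not use strand, so Klf3 is uncertain to that extent. Mitochondrial genes took 4.41 to 13.2% of the counts, with 13.2 and 12.9% in control, 10.4, 12.5 and 6.18% in Nr5a2 KD, 4.41, 8.28 and 11.8% in Klf5 KD, and 12.8, 12.6, 6.75 and 6.17% in dKD. The 12 markers of 8-cell embryos were detected in each group, with Dppa3 at 14410 CPM (counts-per-million) or more, whereas the 12 cumulus and granulosa markers summed to 4.16 CPM at most, with 6 or 7 of them at 0 in a group. The 8 oviduct and blood markers summed to 5.76 to 10.7 CPM in control, 13.1 to 22.1 CPM in Nr5a2 KD, 6.83 to 12.9 CPM in Klf5 KD and 13.2 to 32.7 CPM in dKD, with 3 of them at 0 in each group. The highest of them, the globin gene Hba-a1, lay between 3.21 and 26.7 CPM over all libraries and was called higher in dKD than in control (log2 fold change 2.02, edgeR adjusted p = 0.0275) and than in Klf5 KD (1.42, adjusted p = 0.0302). The part of these markers in the results was not tested.

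**Figure D1:**
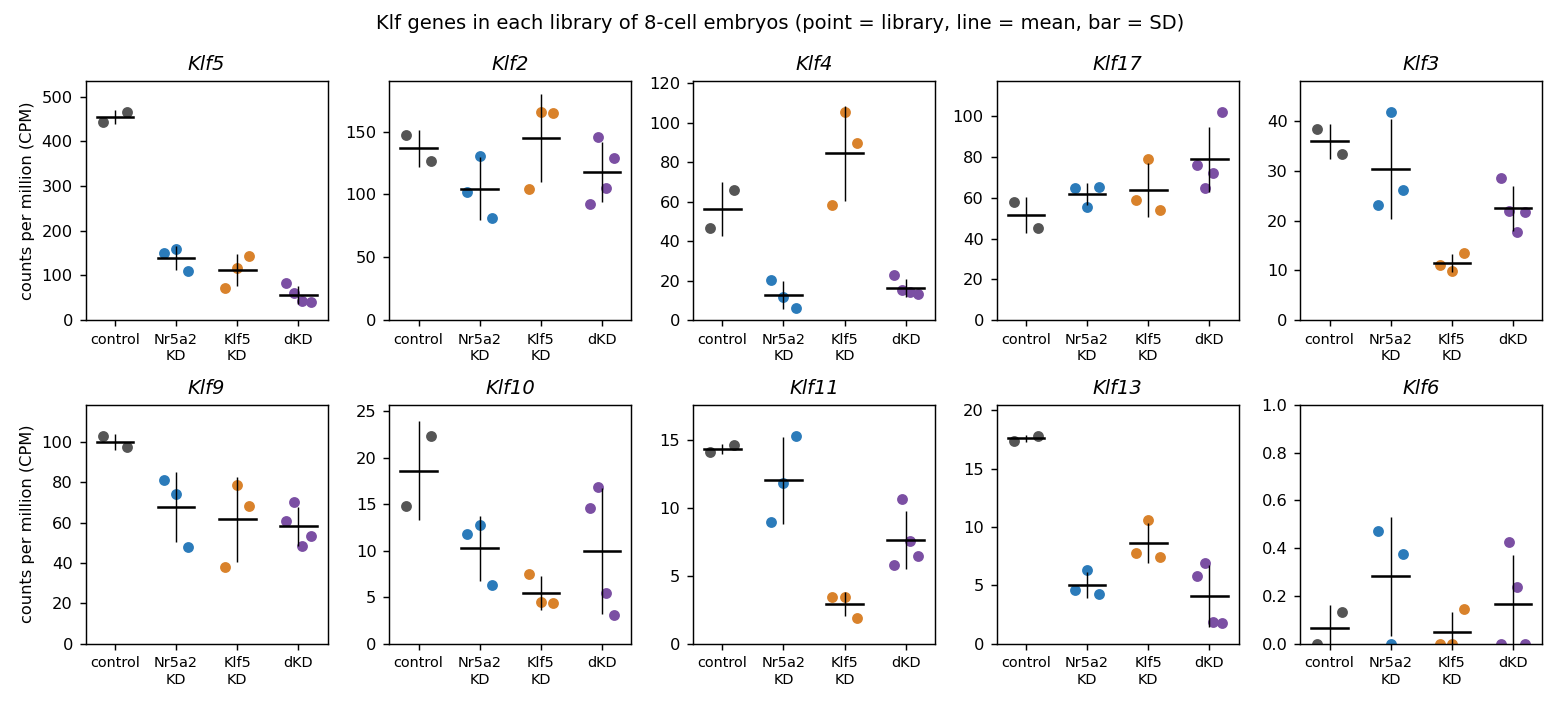
Level of each of the 10 Klf genes in CPM (vertical axes from 0, a different range in each panel) in each library of control, Nr5a2 KD, Klf5 KD and dKD embryos; points are libraries, horizontal lines group means and vertical bars SD. Klf5 lies below control in all 10 knockdown libraries, Klf4 is low in Nr5a2 KD and dKD but not in Klf5 KD, and Klf3 and Klf11 are lowest in Klf5 KD.

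At the 8-cell stage the family was dominated by Klf5 and Klf2. Levels between genes were compared as transcripts-per-million (TPM), in which counts are divided by exonic length. In control embryos Klf5 stood at 133 and 144 TPM and Klf2 at 125 and 110 TPM, and Klf5 was above Klf2 in both libraries with no overlap. Klf17, known from early embryos and germ cells, followed at a mean of 34.0 TPM, Klf9 at 32.9 TPM and Klf4 at 29.3 TPM, and these neighbours overlapped between libraries and do not differ beyond their spread. Klf10 had a mean of 7.06 TPM, Klf11 5.23 TPM, Klf3 5.06 TPM and Klf13 3.70 TPM, with Klf11 and Klf3 overlapping. Klf6, a member that many adult tissues express, had 0 counts in 6 of the 12 libraries and at most 4 counts in any, close to the 3 counts per library that a count of 0 still allows. By mean TPM in control, Klf5 ranked 831 and Klf2 944 among the 22795 genes with a value above 0. Of the 7 Klf genes outside the members, Klf8 was the highest, at 66.9 and 73.6 CPM in control, while Klf15 had no count in any library and Klf12 at most 2.

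Knockdown of the targets was read from the same libraries. Nr5a2 stood at 210 and 225 CPM in control, and at 24.1 to 38.8 CPM in the 3 Nr5a2 KD libraries (14.7% of the control mean) and 25.2 to 33.8 CPM in the 4 dKD libraries (13.7%). In Klf5 KD, Nr5a2 lay between 117 and 255 CPM and overlapped control (88.2%). Klf5 (chr14:99298691-99315036, plus strand, GRCm38) stood at 444 and 466 CPM in control, at 150, 158 and 109 CPM in Nr5a2 KD, at 72.7, 117 and 144 CPM in Klf5 KD, and at 82.0, 59.8, 42.2 and 39.9 CPM in dKD. No knockdown library came near the control libraries, and the dKD libraries were all lower than those of Nr5a2 KD. Klf5 RNA was thus 30.6% of the control mean in Nr5a2 KD, 24.5% in Klf5 KD and 12.3% in dKD, and Nr5a2 KD and Klf5 KD overlapped in their Klf5 levels (log2 difference -0.34, Klf5 KD minus Nr5a2 KD, 95% interval -0.97 to 0.29, edgeR adjusted p = 0.522).

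Loss of Nr5a2 went with lower Klf5, Klf4 and Klf13. A gene was called when edgeR's quasi-likelihood test gave an adjusted p (Benjamini-Hochberg, over all genes tested) under 0.05 and the change was at least 2-fold. In Nr5a2 KD against control, 3 of the 9 tested members were called lower and 0 higher, where 4.42% of all 13262 genes tested were called lower (586) and 3.45% higher (457). Without control replicate 1 the calls over all genes fell to 206 lower and 114 higher, and without replicate 2 to 184 and 120. In 5 of the 9 (Klf4, Klf5, Klf9, Klf10 and Klf13) all Nr5a2 KD libraries lay below both controls, against 22.5% of all genes. Klf5 fell by 1.68 on the log2 scale, with a standard error (SE) of 0.225 and an edgeR adjusted p = 0.0013. The median log2 fold change of the tested members was -0.54, beside 0.04 over all genes, and 8 of the 9 values were negative, of which those of Klf2, Klf3, Klf9 and Klf11 turned positive when libraries were scaled to ERCC spike-in counts. The ERCC scaling moved the median of all genes to 0.82 in Nr5a2 KD, 0.66 in Klf5 KD and 0.84 in dKD, and under it Klf5 (-0.96) was not called in Nr5a2 KD.

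Klf4 (chr4:55527143-55532466, minus strand), a reprogramming factor, stood at 46.6 and 66.0 CPM in control, at 20.4, 11.8 and 5.89 CPM in Nr5a2 KD, at 58.2, 105 and 89.8 CPM in Klf5 KD, and at 22.6, 15.3, 14.0 and 13.0 CPM in dKD. The Nr5a2 KD and dKD libraries lay below both controls, whereas those of Klf5 KD reached from within the control range to above it. Klf4 fell by 2.13 on the log2 scale in Nr5a2 KD (SE 0.391, edgeR adjusted p = 0.00678) and by 1.76 in dKD (SE 0.272, adjusted p = 0.00422), while in Klf5 KD its log2 fold change was 0.58 (SE 0.317, adjusted p = 0.627). The direct comparisons separated the groups: Klf4 was higher in Klf5 KD than in Nr5a2 KD by 2.72 on the log2 scale (SE 0.401, edgeR adjusted p = 0.00115), and lower in dKD than in Klf5 KD (log2 fold change -2.37, SE 0.281, adjusted p = 0.000365). Between dKD and Nr5a2 KD the log2 difference of Klf4 was 0.36 (95% interval -0.45 to 1.16). Without control replicate 2, Klf4 was no longer called in Nr5a2 KD (-1.85 in log2, edgeR adjusted p = 0.0666) nor in dKD (-1.48, adjusted p = 0.0823), and over all alternatives its adjusted p ranged from 1.27e-10 to 0.071 in Nr5a2 KD and from 4.29e-08 to 0.0823 in dKD. With mitochondrial share as a covariate the call in Nr5a2 KD was lost as well (-1.57, adjusted p = 0.071), and ERCC scaling ended both calls, with -1.46 (adjusted p = 0.0703) in Nr5a2 KD and -0.98 (adjusted p = 0.0474, under 2-fold) in dKD. Both comparisons with Klf5 KD kept the Klf4 call under each alternative run.

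Klf13 (chr7:63886351-63938915, minus strand), a repressor of the SIN3A-binding group known from lymphocytes, was low in these embryos, at 17.4 and 17.8 CPM (115 and 133 counts) in control. It stood at 4.59, 6.32 and 4.26 CPM in Nr5a2 KD, at 7.81, 10.6 and 7.47 CPM in Klf5 KD, and at 5.80, 6.93, 1.88 and 1.77 CPM in dKD. The 10 knockdown libraries were all below control, and those of Klf5 KD lay above those of Nr5a2 KD and dKD. Klf13 fell by 1.77 on the log2 scale in Nr5a2 KD (SE 0.34, edgeR adjusted p = 0.0082) and by 2.08 in dKD (SE 0.492, adjusted p = 0.0249), and its log2 fold change in Klf5 KD was -1.02 (SE 0.336, adjusted p = 0.512). The difference between Klf5 KD and Nr5a2 KD was 0.76 on the log2 scale (95% interval -0.05 to 1.56, edgeR adjusted p = 0.225). Leaving out a control library ended the calls of Klf13, although its values changed little. Its log2 fold change in Nr5a2 KD was -1.80 without control replicate 1 and -1.75 without replicate 2. In dKD it lay between -2.44 and -1.83 when any library was left out. The Klf13 value in dKD moved to -1.35 with mitochondrial share as a covariate and stayed called (adjusted p = 0.0383). In Nr5a2 KD the edgeR adjusted p was 0.0591 with mitochondrial share as a covariate (log2 fold change -1.53) and 0.158 under ERCC scaling (-1.05). Over all alternatives it ranged from 0.000451 to 0.158 there.

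**Figure D2:**
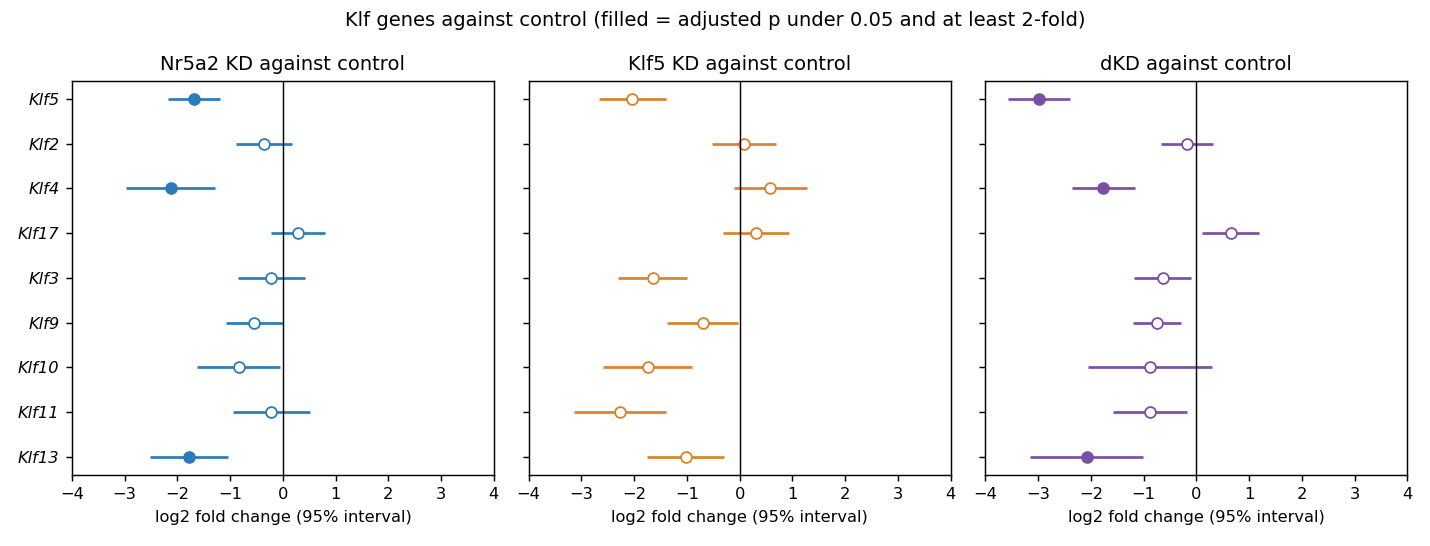
Log2 fold change of the 9 tested Klf genes against control (horizontal axis) with its 95% interval by edgeR, in Nr5a2 KD, Klf5 KD and dKD; filled points are called genes (adjusted p under 0.05, 2-fold or more). Klf5, Klf4 and Klf13 are called in Nr5a2 KD and in dKD, no gene is called in Klf5 KD, and the values of Klf3, Klf5, Klf10 and Klf11 in Klf5 KD lie between -2.27 and -1.64.

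In Klf5 KD, Klf3, Klf10 and Klf11 lay below control beside Klf5 itself, but no gene of the transcriptome passed the adjusted threshold by edgeR. Of the 9 tested members 0 were called, as were 0.0% of all 12838 genes, where 1087 genes had an unadjusted p under 0.05. At that unadjusted p, 6 of the 9 members were lower (Klf3, Klf5, Klf9, Klf10, Klf11 and Klf13) against 4.67% of all genes. DESeq2 called 4 of the 9 lower, Klf3, Klf5, Klf10 and Klf11, against 0.327% of all genes, and edgeR without the filter on low counts called the same 4 members. Without Klf5 KD replicate 3, edgeR called Klf5 (adjusted p = 0.0357), and across the alternatives its adjusted p lay between 2.2e-08 and 0.572. In 6 of 9 members each Klf5 KD library was below both controls, against 14.4% of all genes. The median log2 fold change of the tested members was -1.02, beside 0.00 over all genes. Klf5, the target of the siRNA, is among the members in each of these counts, and its fall was set by the treatment.

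Klf3 (chr5:64803388-64832901, plus strand), the CtBP-binding repressor, stood at 38.4 and 33.5 CPM in control, at 23.1, 41.8 and 26.1 CPM in Nr5a2 KD, at 11.1, 9.78 and 13.5 CPM in Klf5 KD, and at 28.5, 21.9, 17.7 and 21.8 CPM in dKD. Its Klf5 KD libraries were the lowest of all 12, and Nr5a2 KD overlapped control. Against control its log2 fold change was -1.64 in Klf5 KD (SE 0.303, edgeR adjusted p = 0.127), -0.22 in Nr5a2 KD and -0.64 in dKD (adjusted p = 0.135). Klf3 was called lower in Klf5 KD than in Nr5a2 KD (log2 difference -1.42, SE 0.319, edgeR adjusted p = 0.0105). It was higher in dKD than in Klf5 KD by 0.98 on the log2 scale (adjusted p = 0.0333), which is under the 2-fold minimum. Its call against Nr5a2 KD was lost without Nr5a2 KD replicate 2 (-1.11, edgeR adjusted p = 0.0663) and without Klf5 KD replicate 2 (-1.29, adjusted p = 0.0576), in a range of 0.000748 to 0.0663 over the alternatives.

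Klf11 (chr12:24651274-24662789, plus strand), induced by TGF-beta and a SIN3A-binding repressor, stood at 14.1 and 14.6 CPM in control, at 8.94, 11.8 and 15.3 CPM in Nr5a2 KD, at 3.41, 3.42 and 1.90 CPM in Klf5 KD (38, 29 and 13 counts), and at 5.80, 10.6, 7.54 and 6.48 CPM in dKD. The Klf5 KD libraries lay below all others, the dKD libraries below control, and Nr5a2 KD overlapped control. In Klf5 KD its level was 20.3% of the control mean, with a log2 difference of -2.27 (SE 0.404, edgeR adjusted p = 0.127). Klf11 was called lower in Klf5 KD than in Nr5a2 KD (log2 difference -2.04, SE 0.403, edgeR adjusted p = 0.00511), a call kept under each alternative run. It was called higher in dKD than in Klf5 KD (1.38, SE 0.392, edgeR adjusted p = 0.035), but that call was lost with ERCC scaling (adjusted p = 0.0809), with the replicate block (adjusted p = 0.115), without any of the Klf5 KD libraries in turn and without dKD replicates 2, 3 or 4, where the adjusted p lay between 0.0564 and 0.11, in a range of 0.0114 to 0.115 over the alternatives.

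Klf10 (chr15:38291463-38300706, minus strand), the other TGF-beta induced member, stood at 14.8 and 22.4 CPM in control, at 11.8, 12.8 and 6.26 CPM in Nr5a2 KD, at 7.54, 4.48 and 4.40 CPM in Klf5 KD, and at 14.6, 16.8, 5.42 and 3.06 CPM in dKD. In dKD its libraries fell into a higher and a lower pair, and the same pairs differed in Klf13 (5.80 and 6.93 against 1.88 and 1.77 CPM), in Klf5 (82.0 and 59.8 against 42.2 and 39.9 CPM) and in mitochondrial share (12.8 and 12.6% against 6.75 and 6.17%). Klf4, Klf9 and, narrowly, Klf3 were split by these pairs in the same direction, whereas Klf2, Klf11 and Klf17 were not. With mitochondrial share as a covariate the log2 fold change in dKD was -0.12 for Klf10, -1.35 for Klf13 and -2.61 for Klf5, against -0.87, -2.08 and -2.99 without it, and Klf13 and Klf5 were still called. Klf10 had a log2 fold change of -1.74 in Klf5 KD (SE 0.39, edgeR adjusted p = 0.228), of -0.84 in Nr5a2 KD (SE 0.361, adjusted p = 0.179) and of -0.87 in dKD (SE 0.536, adjusted p = 0.346). The covariate also moved Klf10 to -0.37 in Nr5a2 KD and to -2.39 in Klf5 KD, and ERCC scaling moved it to -0.21 in dKD.

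In the double knockdown, Klf5, Klf4 and Klf13 were called lower, the members also called in Nr5a2 KD. In dKD against control, 3 of the 9 tested members were called lower and 0 higher, where 3.85% of all 13724 genes tested were called lower (529) and 3.38% higher (464). Without control replicate 1 these were 91 and 41, without replicate 2 they were 104 and 67, and without dKD replicate 4 they were 401 and 274. All dKD libraries lay below both controls in 6 of the 9 (Klf3, Klf4, Klf5, Klf9, Klf11 and Klf13), against 19.2% of all genes. Klf3 and Klf11 had lain wholly below control in Klf5 KD and not in Nr5a2 KD, and Klf10, wholly below in both single knockdowns, overlapped control in dKD. Under ERCC scaling Klf4 was not called in dKD and Klf17 was called higher (1.48), so that 2 members were called lower and 1 higher. Klf5 fell by 2.99 on the log2 scale (SE 0.269, edgeR adjusted p = 0.000602), a call kept under each alternative run. The median log2 fold change of the members was -0.87, beside 0.05 over all genes, and 8 of 9 values were negative, of which those of Klf2, Klf3 and Klf9 turned positive under ERCC scaling. Control is shared by the 3 comparisons, so their lists of members are not independent of each other. In dKD as in Klf5 KD, the members counted as lower include Klf5, whose fall was set by the siRNA against it.

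Whether the added loss changed a member was read from dKD against each single knockdown. Against Nr5a2 KD, 0 of the 9 members were called, as were 0.0% of all 13017 genes by edgeR, with 447 genes at an unadjusted p under 0.05. Klf5 was lower in dKD by 1.31 on the log2 scale (SE 0.26, unadjusted p = 0.00027 and edgeR adjusted p = 0.999), and in each dKD library lower than in each Nr5a2 KD library, against 2.37% of all genes. A two-sided exact permutation test gave p = 0.0286 for that difference, which is the smallest that 4 against 3 libraries allow, in a family of 60 such unadjusted tests. That test exchanged libraries without regard to the replicate numbers, which pair these groups. Of the 60 tests, 20 could go under 0.05, and 3 of those, this one included, gave their smallest p. Within the 3 pairs dKD was lower in each for Klf5 (dKD minus Nr5a2 KD of -98.5 to -66.8 CPM) and Klf11, and higher in each for Klf4 and Klf17, and an exact paired permutation test of 3 pairs cannot go below p = 0.25. With the replicate number as a block Klf5 differed by -1.21 on the log2 scale (edgeR adjusted p = 0.0708). DESeq2 called Klf5 (adjusted p = 0.0228) as 1 of 4 genes lower (0.0307% of those tested), in a range of 0.000297 to 1.0 over all alternatives. Against Klf5 KD, 1 of the 9 members was called lower (Klf4) and 1 higher (Klf11), where 5.41% of all genes were called lower and 5.38% higher. Here Klf4 and Klf13 lay wholly below Klf5 KD (12.6% of all genes did) and Klf3 and Klf11 wholly above (12.2%). In Klf5 KD against Nr5a2 KD, 2 members were called lower (Klf3 and Klf11) and 1 higher (Klf4), where 5.6% of all genes were called lower and 5.83% higher. In that comparison Klf3 and Klf11 lay wholly below (15.2% of all genes did) and Klf4 and Klf13 wholly above (15.6%).

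**Figure D3:**
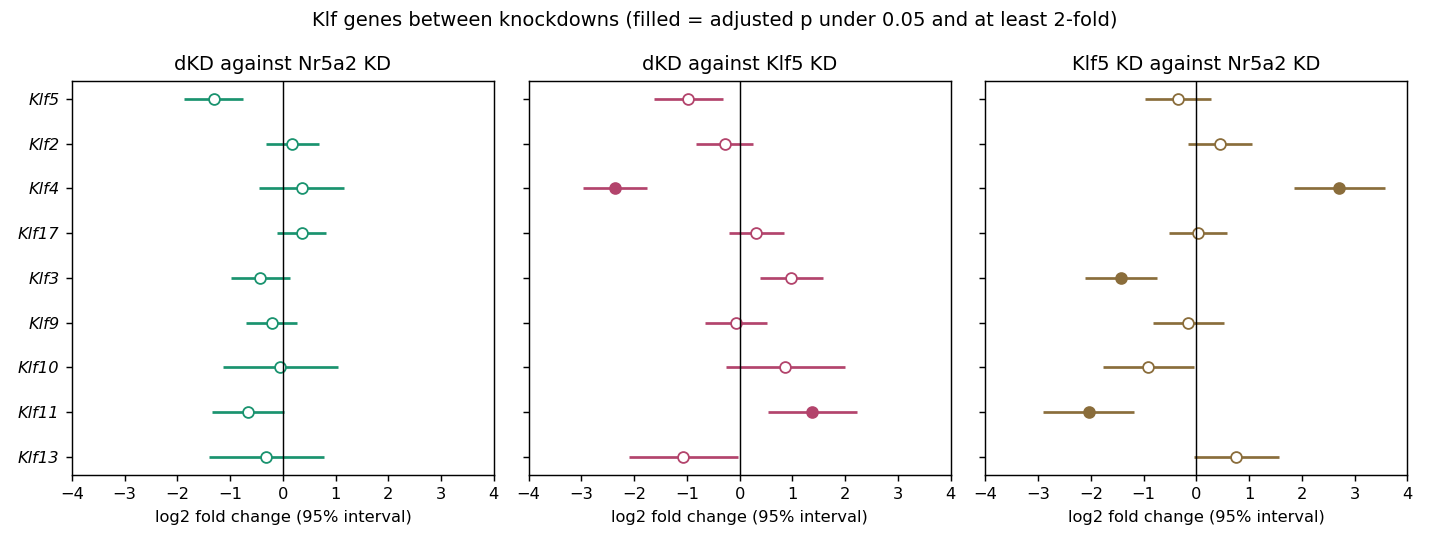
Log2 fold change of the 9 tested Klf genes between knockdown groups (horizontal axis) with its 95% interval by edgeR, in 3 panels (dKD against Nr5a2 KD, dKD against Klf5 KD, then Klf5 KD against Nr5a2 KD); filled points are called genes (adjusted p under 0.05, 2-fold or more). Klf4, with -2.37 and 2.72, and Klf11, with 1.38 and -2.04, move in opposite senses between Klf5 KD and the groups given siRNA against Nr5a2, and dKD against Nr5a2 KD has no called gene.

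The interaction term tests whether the effect of both siRNAs differs from what the separate effects add up to in log2 units. None of the 9 members passed at an adjusted p under 0.05 by edgeR (0 of all 14830 genes, 0.0%, and 715 at an unadjusted p under 0.05, with 3 calls by DESeq2, none of them a member). Its values were 1.62 for Klf11 (SE 0.495), 1.22 for Klf3 (SE 0.397) and 1.71 for Klf10 (SE 0.732), each with an adjusted p of 0.95 and unadjusted p-values of 0.00461, 0.007 and 0.0326. A positive value says that the member was higher in dKD than the single knockdowns add up to. For Klf5 the term was 0.72 (95% interval -0.18 to 1.62) and for Klf4 -0.23 (95% interval -1.35 to 0.88), so the design leaves a wide range for both.

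Klf2, Klf17 and Klf9 varied least between groups. Klf2 (chr8:72319033-72321656, plus strand), the other abundant member, stood at 147 and 126 CPM in control, at 102, 131 and 80.9 CPM in Nr5a2 KD, at 104, 166 and 165 CPM in Klf5 KD, and at 92.4, 146, 105 and 129 CPM in dKD. All its groups overlapped control, and its log2 fold change was -0.36 in Nr5a2 KD (95% interval -0.89 to 0.17), 0.08 in Klf5 KD (-0.53 to 0.70) and -0.17 in dKD (-0.67 to 0.33). A 2-fold change of Klf2 lay outside each of these intervals under TMM scaling, but under ERCC scaling the values were 0.34 (-0.59 to 1.28), 0.71 (-0.26 to 1.68) and 0.61 (-0.15 to 1.38), and these intervals hold a 2-fold rise.

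Klf17 (chr4:117757836-117765648, minus strand) was the member whose values were above control on average in every knockdown, although it was called in none. It stood at 57.9 and 45.4 CPM in control, at 64.7, 55.5 and 65.3 CPM in Nr5a2 KD, at 59.0, 78.8 and 53.9 CPM in Klf5 KD, and at 76.3, 64.9, 72.0 and 102 CPM in dKD. The 4 dKD libraries lay above both controls, against 17.0% of all genes, and the single knockdowns overlapped control. Its log2 fold change in dKD was 0.65 (SE 0.249, edgeR adjusted p = 0.13), and under ERCC scaling it was 1.48 (adjusted p = 0.033), in a median over all genes of 0.84.

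Klf9 (chr19:23141226-23168134, plus strand), known as a gene that responds to thyroid and glucocorticoid hormone, stood at 103 and 97.2 CPM in control, at 80.8, 73.9 and 48.1 CPM in Nr5a2 KD, at 38.0, 78.6 and 68.3 CPM in Klf5 KD, and at 60.8, 70.2, 48.3 and 53.2 CPM in dKD. Each knockdown library was below both controls, but the changes were under 2-fold, with log2 fold changes of -0.54 in Nr5a2 KD (edgeR adjusted p = 0.207), -0.70 in Klf5 KD (adjusted p = 0.57) and -0.75 in dKD (adjusted p = 0.0514). Under ERCC scaling the values of Klf9 were 0.16, -0.06 and 0.02.

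In TPM, the summed level of the members was below control in each knockdown library, a difference that did not hold under ERCC scaling, and Klf5 took a smaller share of it. The 10 members summed to 372 and 374 TPM in control, while the knockdown means were 241 ± 20.9 TPM for Nr5a2 KD (SD, n = 3), 276 ± 72.2 TPM for Klf5 KD (n = 3) and 252 ± 36.1 TPM for dKD (n = 4). Relative to the control mean these were 64.7% in Nr5a2 KD, 74.0% in Klf5 KD and 67.6% in dKD, whereas with the same sums divided by the ERCC counts of each library, a scaling added after the data were seen, they were 97.6% ± 18.0 (SD), 113% ± 36.2 and 99.3% ± 24.1, and the libraries below both controls were 2 of 3, 1 of 3 and 2 of 4. The shares of the sum do not depend on that scaling. The sum includes Klf5, the target of the siRNA in Klf5 KD and dKD, so a lower sum there was partly set by the treatment. Mean Klf5 was 138 TPM in control, 47.4 TPM in Nr5a2 KD, 34.2 TPM in Klf5 KD and 20.2 TPM in dKD. A lower sum thus does not show that the other members fell. Klf5 made up 35.8 and 38.5% of the sum in control, 18.7 to 20.3% of it in Nr5a2 KD, 11.0 to 14.8% of it in Klf5 KD, and 5.50 to 12.5% in dKD. Klf4 took 6.41 and 9.30% in control, but 1.73 to 4.70% in Nr5a2 KD, then 15.1 to 17.3% in Klf5 KD, with 3.04 to 5.89% in dKD. Klf2 took 29.4 and 33.5% in control and 39.8 to 53.9% in dKD, and Klf17 took 8.12 and 10.1% in control and 18.4 to 30.4% in dKD. Shares of a sum are not independent, so a lower share of Klf5 raises the others.

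**Figure D4:**
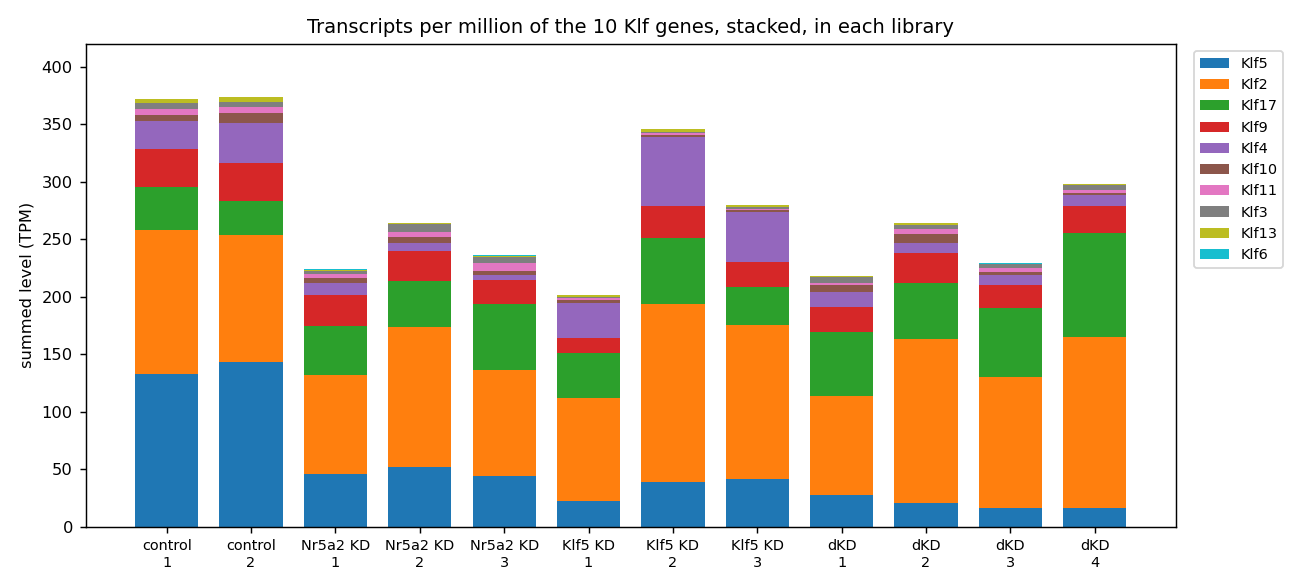
Summed level of the 10 Klf genes in TPM (vertical axis from 0), stacked by gene, in each of the 12 libraries (horizontal axis, group and replicate). The sum is 372 and 374 TPM in control and 202 to 346 TPM in the knockdown libraries, and the block of Klf5 at the base is smaller in each knockdown library than in control, while Klf2 is the largest block there.

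The order of the members by mean TPM changed with the loss of either factor. Klf2 came first in each knockdown group, at 100 TPM in Nr5a2 KD, 126 TPM in Klf5 KD and 123 TPM in dKD, where its libraries overlapped those of Klf17 although Klf2 was higher within each of the 4. In Nr5a2 KD, Klf5 (47.4 TPM) and Klf17 (46.5 TPM) followed and overlapped, ahead of Klf9 (24.6 TPM) and Klf4 (7.08 TPM). In Klf5 KD, Klf4 (44.8 TPM), Klf17 (43.2 TPM), Klf5 (34.2 TPM) and Klf9 (20.7 TPM) followed, each overlapping its neighbour. In dKD, Klf17 (63.6 TPM) was second, and Klf9 (23.0 TPM) and Klf5 (20.2 TPM) overlapped ahead of Klf4 (10.0 TPM). Counted without division by length, Klf5 was first in Nr5a2 KD too, since its transcripts are longer than those of Klf2.

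Promoters were read for motifs in the members that moved together, Klf4 and Klf13 in Nr5a2 KD and dKD, and Klf3 and Klf11, called lower in Klf5 KD than in Nr5a2 KD. RefSeq promoters of GRCm38.p6, from 250 bases before to 50 bases after the start, matched 8 of the 10 members by symbol, and Klf5 and Klf10 had no entry. Both strands were searched for 4 strings. The string TCAAGGCCA, which NR5A2 is known to bind, was held by 0.591% of all 32851 promoters in the table. Its variant with a T in place of a C, TCAAGGTCA, was held by 0.423% of them. The CACCC-type KLF motif GGTGTGG was held by 7.58% and the GC box GGGCGGG by 25.6%. Capitals mark a match on either strand.
Klf4 (chr4:55532426-55532725, minus strand): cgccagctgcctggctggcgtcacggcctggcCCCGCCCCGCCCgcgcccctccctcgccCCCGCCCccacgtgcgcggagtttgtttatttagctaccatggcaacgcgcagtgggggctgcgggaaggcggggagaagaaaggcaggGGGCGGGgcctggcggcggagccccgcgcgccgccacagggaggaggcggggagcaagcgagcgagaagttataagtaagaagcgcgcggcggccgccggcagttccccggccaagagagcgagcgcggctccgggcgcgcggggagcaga
Klf13 (chr7:63938866-63939165, minus strand): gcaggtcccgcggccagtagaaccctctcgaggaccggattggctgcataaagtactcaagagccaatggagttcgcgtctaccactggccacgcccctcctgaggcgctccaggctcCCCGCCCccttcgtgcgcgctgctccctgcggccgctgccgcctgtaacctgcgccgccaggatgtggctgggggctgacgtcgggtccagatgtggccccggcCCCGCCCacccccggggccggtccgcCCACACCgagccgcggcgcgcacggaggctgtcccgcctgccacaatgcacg
Klf3 (chr5:64803271-64803570, plus strand): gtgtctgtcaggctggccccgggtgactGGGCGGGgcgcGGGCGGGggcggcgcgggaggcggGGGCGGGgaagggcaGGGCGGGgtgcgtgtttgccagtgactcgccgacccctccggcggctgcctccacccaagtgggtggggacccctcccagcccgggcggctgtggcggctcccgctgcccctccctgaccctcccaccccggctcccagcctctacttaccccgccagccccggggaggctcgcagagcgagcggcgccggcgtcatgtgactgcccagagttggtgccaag
Klf11 (chr12:24651121-24651420, plus strand): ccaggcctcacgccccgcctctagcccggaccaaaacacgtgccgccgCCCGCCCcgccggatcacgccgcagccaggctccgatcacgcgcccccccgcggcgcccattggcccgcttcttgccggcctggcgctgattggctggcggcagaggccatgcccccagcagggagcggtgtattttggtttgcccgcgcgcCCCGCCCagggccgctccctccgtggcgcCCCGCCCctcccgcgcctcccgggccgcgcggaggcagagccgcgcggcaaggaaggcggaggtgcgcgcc
Klf17 (chr4:117765617-117765916, minus strand): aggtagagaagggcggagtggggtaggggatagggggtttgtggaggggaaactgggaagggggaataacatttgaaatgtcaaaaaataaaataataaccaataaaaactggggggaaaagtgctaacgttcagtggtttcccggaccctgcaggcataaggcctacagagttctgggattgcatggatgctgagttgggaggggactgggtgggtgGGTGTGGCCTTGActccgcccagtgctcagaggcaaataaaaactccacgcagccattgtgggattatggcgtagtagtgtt
Klf17, whose mean was above control in every knockdown group, was the member with the NR5A2 string TCAAGGCCA. It lies on the strand opposite to the gene, with its leftmost printed base 28 bases before the start. GGTGTGG on the strand of the gene, beginning 32 bases before the start, overlaps it. Klf13 held GGTGTGG on the strand opposite to the gene, with its leftmost printed base 2 bases before the start. The GC box was present 4 times in Klf3 and in Klf4, where 2 of the 4 overlap, 3 times in Klf11, and 2 times in Klf2 and in Klf13, and Klf6, Klf9 and Klf17 had none in this window. A match is a description of the letters and not a binding site.

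Apart from Klf8, the Klf genes outside the members had few or no counts. Of the other 7 Klf genes counted, Klf8 (chrX:153237466-153396132, plus strand), a CtBP-binding repressor, was called lower in dKD (log2 fold change -1.15, SE 0.26, edgeR adjusted p = 0.0207), where it stood at 20.3 to 41.2 CPM, beside 36.6 to 51.9 CPM in Nr5a2 KD and 11.0 to 33.7 CPM in Klf5 KD. Each of these ranges lies below the control libraries. Klf1, Klf7, Klf14 and Klf16 had at most 34 counts in a library. Of the related Sp genes, which bind the same GC boxes, 5 of 9 were tested in Nr5a2 KD and 6 in dKD, and Sp3 was called lower in each, beside 4.42% and 3.85% of all genes. It stood at 120 and 140 CPM in control, 40.1 to 66.5 CPM in Nr5a2 KD, with 43.8 to 62.7 CPM in dKD (log2 fold changes -1.34 and -1.23, adjusted p = 0.00792 and 0.00664 by edgeR). The median over the tested Sp genes was -1.10 in Nr5a2 KD and -0.22 in dKD, beside 0.04 and 0.05 over all genes.

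Among 12 cofactors of KLF proteins, Hdac2 and Ctbp2 were the genes called in any comparison between groups. Against control 0 were called in Nr5a2 KD, beside 4.42% of all genes lower and 3.45% higher, and 0 in Klf5 KD, where no gene was. The deacetylase Hdac2 was higher in Nr5a2 KD but under 2-fold (0.94, edgeR adjusted p = 0.0354). In dKD Hdac2 was called higher (99.4 and 101 CPM in control, 124 to 267 CPM in dKD, log2 fold change 1.20, edgeR adjusted p = 0.0354), as were 3.38% of all genes. Ctbp2, the partner of Klf3, was called lower in Klf5 KD than in Nr5a2 KD (log2 difference -1.66, edgeR adjusted p = 0.00737), and dKD exceeded Klf5 KD (1.32, edgeR adjusted p = 0.0171), and Hdac2 was called in the same directions, where 5.6% of all genes were called lower in the first comparison and 5.38% higher in the second. Of 11 genes of KLF protein turnover, 10 were tested in Nr5a2 KD and in dKD and 8 in Klf5 KD, with 0 called in each. Over all genes, 4.42% were called lower and 3.45% higher in Nr5a2 KD, 3.85% and 3.38% in dKD, and 0.0% in Klf5 KD. The ubiquitin ligase gene Btrc (1.07, adjusted p = 0.046) and the kinase gene Gsk3b (1.09, edgeR adjusted p = 0.0215) were called higher in Klf5 KD than in Nr5a2 KD, as were 5.83% of all genes.

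Of 14 known targets of KLF proteins in embryonic stem cells, 10 were tested in Nr5a2 KD, with 0 called lower and 2 higher, beside 4.42% and 3.45% of all genes: Esrrb (17.9 and 21.3 CPM in control, 30.8 to 51.9 CPM in Nr5a2 KD, log2 fold change 1.07, edgeR adjusted p = 0.0361) and Mycn (0 and 1 count in control, 21 to 28 counts in Nr5a2 KD, adjusted p = 0.0115). In dKD, Tfcp2l1 was called lower (log2 fold change -1.08, edgeR adjusted p = 0.0434) and Mycn higher (13 to 54 counts, adjusted p = 0.0114), beside 3.85% and 3.38% of all genes. The medians were -0.19 in Nr5a2 KD, -0.05 in Klf5 KD and -0.24 in dKD, beside 0.0439, 0.0045 and 0.0547 over all genes.

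Of 16 genes of the first lineages and of FGF signalling, 13 were tested, and 1 was called lower and 4 higher in Nr5a2 KD, beside 4.42% and 3.45% of all genes. Tead4, needed for trophectoderm, was the lower one (95.4 and 100 CPM in control, 37.8 to 66.8 CPM in Nr5a2 KD, edgeR adjusted p = 0.0393). Dusp6, a phosphatase induced by FGF signalling, stood at 2.54 and 3.93 CPM in control, 26.6 to 42.7 CPM in Nr5a2 KD, 15.1 to 52.3 CPM in dKD and 0 to 0.147 CPM in Klf5 KD. It was called higher in Nr5a2 KD (edgeR adjusted p = 0.000435) and in dKD (adjusted p = 0.00684), and its Klf5 KD libraries held at most 1 count. Krt8, Krt18 and Spry2 were the other genes called higher in Nr5a2 KD (Spry2 was named there after its values were seen), and Spry2 and Dusp6 those in dKD, with 0 called lower in dKD, where 3.38% of all genes were called higher and 3.85% lower. Lower but under 2-fold were Tfap2c in Nr5a2 KD (log2 fold change -0.99, edgeR adjusted p = 0.0246) and Tead4 in dKD (-0.77, adjusted p = 0.0426). In Klf5 KD 0 of the 13 were called, as were 0.0% of all genes.

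Of 17 genes that act upstream of Klf genes, 12 were tested in Nr5a2 KD, and Socs3, a feedback inhibitor of LIF and STAT3 signalling, was called lower, as were 4.42% of all genes (29.8 and 35.6 CPM in control, 9.06 to 17.0 CPM in Nr5a2 KD, log2 fold change -1.23, edgeR adjusted p = 0.0299). In Klf5 KD 0 were called, as were 0.0% of all genes. In dKD 0 were called, where 3.85% of all genes were called lower and 3.38% higher. Socs3 was lower in dKD as well, but under 2-fold (log2 fold change -0.93, edgeR adjusted p = 0.0363). Mapk7, the kinase ERK5 that is known to act on Klf2, was called lower in Klf5 KD than in Nr5a2 KD (log2 difference -2.73, adjusted p = 0.0176) at 1.0 to 6.5 counts in Klf5 KD, and dKD exceeded Klf5 KD (2.50, edgeR adjusted p = 0.0415), where 5.6% of all genes were called lower in the first comparison and 5.38% higher in the second.

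Stage markers were read beside these lists. The 12 maternal oocyte markers summed to 162 and 163 CPM in control, 119 to 157 CPM in Nr5a2 KD, 104 to 126 CPM in Klf5 KD and 80.2 to 169 CPM in dKD, so that the single knockdowns lay below control and dKD overlapped it. Of the 11 tested, Nlrp5 was called lower in dKD (log2 fold change -1.17, edgeR adjusted p = 0.0324), beside 3.85% of all genes, and 0 were called in the single knockdowns against control. The 2-cell stage markers, several of which have near-identical copies and are uncertain, summed over 8 genes to 13.5 and 15.3 CPM in control, 15.5 to 21.5 CPM in Nr5a2 KD, 17.1 to 33.2 CPM in Klf5 KD and 13.9 to 35.5 CPM in dKD, so that the single knockdowns lay above control. Of the 8 tested in dKD, Zfp352 was called higher (log2 fold change 2.81, edgeR adjusted p = 0.0156), at 29 to 39 counts against 4 in each control, beside 3.38% of all genes, and 0 of the 6 tested in each single knockdown were called. Over all genes, 4.42% were called lower and 3.45% higher in Nr5a2 KD, and 0.0% in Klf5 KD. The 12 markers of 8-cell embryos summed to 18223 and 21598 CPM in control, 23719 to 32368 CPM in Nr5a2 KD, 21633 to 24799 CPM in Klf5 KD and 21578 to 25234 CPM in dKD, with the single knockdowns above control. That sum was mostly Dppa3, at 14410 to 29462 CPM over all libraries, then Dppa5a, at 1594 to 5081 CPM. It therefore follows these genes and not the set. In Nr5a2 KD, Tead4 of this list was called lower and Krt8 and Krt18 higher, beside 4.42% and 3.45% of all genes. Dppa5a (log2 fold change -0.80, edgeR adjusted p = 0.0484) and Tfap2c (-0.99, adjusted p = 0.0246) were lower there but under 2-fold. Zp3 is in this list and in the maternal one. The part of the stage markers in the results on the members was not tested.

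The genes with the most similar pattern were found for the 6 members whose group means spanned at least 1 on the log2 CPM scale, by the root mean square (RMS) difference of centred log2 CPM over the 12 libraries among 11035 genes. The nearest to Klf4 were Pramel5 (0.30), Fgf1 (0.32) and Hltf (0.37). Those nearest to Klf13 were Zar1l (0.33), Lgalsl (0.33) and Ermp1 (0.40), and those nearest to Klf3 were Ebag9 (0.29), Bmpr2 (0.32) and Eprn (0.32). Klf5 had no gene as near to it: C77080 stood at 0.48, Pinlyp at 0.53 and Epas1 at 0.55. For Klf10 they were C1galt1 (0.36), Rnf141 (0.44) and Cox6b2 (0.45), and for Klf11 Dmtn (0.43), Gorab (0.45) and Itpr2 (0.45). No member was among the 3 nearest genes of another member.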

How the data were processed

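The files held estimated counts per gene, deposited for each of the 12 libraries. Per the labels and the submitters' processing notes, the authors made cDNA with SMART-seq v4 and libraries with Nextera XT, trimmed reads with Trim Galore 0.6.2, used STAR for alignment to GRCm38 plus ERCC spike-in and H2B-EGFP sequences, and counted exons with featureCounts 2.0.1, without strand, sharing a read among overlapping genes as fractions. These deposited estimated counts were rounded to whole numbers before testing. The methods name a NovaSeq instrument for RNA-seq and the labels a NovaSeq or an AVITI, without saying which library was run on which.

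Each pair of groups was compared with edgeR 4.0.16 in R 4.3.3 (quasi-likelihood test, TMM scaling, filterByExpr for low counts, its minimum count at 10 and its total at 15), without a replicate block, on the whole table with ERCC and H2B-EGFP left out. A gene was called at a Benjamini-Hochberg adjusted p under 0.05 and at least 2-fold, and the interaction at an adjusted p under 0.05. The fits were tested on simulated data. Levels were given as CPM with TMM scaling and as TPM from counts per 1000 bases of exon. The exact permutation test used the difference of mean CPM (scipy 1.17.1). Alternatives were DESeq2 1.42.0, other scalings (DESeq2 size factors, total counts, ERCC counts), no filter, all 12 libraries in 1 fit, the replicate number as a block, mitochondrial share as a covariate, no fold minimum, and leaving out each library. The summed level of the members was also divided by ERCC counts, a scaling added after the data were seen. Counting error at 6676683 counts or more per library limited only members with few counts. Figures were drawn with matplotlib 3.10.9.

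Replicate numbers paired libraries only between Nr5a2 KD and dKD, where deviations from the group means correlated in all 3 same-numbered pairs (r = 0.13, 0.221 and 0.254 over 14830 genes), although Nr5a2 KD replicate 3 correlated as much with dKD replicate 4 (0.264). The pairing comes from the data and the titles, not from a stated shared day. All members were named, with Nr5a2, and from each list up to 4 called genes with the smallest adjusted p. Genes most like a member were the 3 with the smallest RMS difference. The members and gene lists were chosen with earlier results of these data known.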

Additional observations from a re-analysis of the deposited data

How the results depend on the processing

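Of the values of single members, 494 kept their direction and side of the threshold under the alternatives that keep all libraries, 22 passed the threshold only there, 9 no longer passed it and 24 changed sign. With a library left out, 391 kept both, 5 passed only there, 14 no longer passed and 22 changed sign. The number of members called in Nr5a2 KD against control (3) was 0 with ERCC scaling and 1 with mitochondrial share as a covariate, and 1 to 3 when a library was left out. In Klf5 KD against control (0) it was 4 with DESeq2, 4 without the filter, 1 with all 12 libraries in 1 fit, 4 with the replicate block, and 0 to 1 with a library left out. In dKD against control (3 lower) it was 1 to 3 with a library left out, and with ERCC scaling 2 were lower and 1 higher. In dKD against Nr5a2 KD (0) it was 1 with DESeq2, 1 without the filter and 1 with the mitochondrial covariate. In dKD against Klf5 KD (2) it was 1 with ERCC scaling, 1 with the replicate block, 4 with the mitochondrial covariate and 1 to 3 with a library left out. The cause of these changes was not tested.

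Some log2 values changed sign. With ERCC scaling they were, in Nr5a2 KD, 0.34 for Klf2, 0.50 for Klf3, 0.16 for Klf9 and 0.62 for Klf11, in dKD 0.61 for Klf2, 0.13 for Klf3 and 0.0168 for Klf9, in dKD against Klf5 KD 0.0801 for Klf9, in Klf5 KD against Nr5a2 KD -0.0862 for Klf17, and in the interaction -0.44 for Klf2, -0.0837 for Klf9, -0.0303 for Klf13 and -0.61 for Klf17. With total counts they were 0.0037 for Klf10 in dKD against Nr5a2 KD, 0.13 for Klf9 in dKD against Klf5 KD and -0.13 for Klf17 in Klf5 KD against Nr5a2 KD. With the mitochondrial covariate they were 0.0497 for Klf3 in Nr5a2 KD, 0.0135 for Klf9 in Klf5 KD against Nr5a2 KD, and in the interaction -0.11 for Klf2 and -0.13 for Klf13. With a library left out, Klf2 in Klf5 KD ranged from -0.0159 to 0.26, Klf10 in dKD against Nr5a2 KD from -0.41 to 0.26, Klf9 in dKD against Klf5 KD from -0.31 to 0.14, Klf9 and Klf17 in Klf5 KD against Nr5a2 KD from -0.35 to 0.11 and from -0.11 to 0.15, and in the interaction Klf2 from -0.094 to 0.29, Klf4 from -0.58 to 0.26 and Klf17 from -0.15 to 0.21.

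With the replicate block Klf10 was -0.20 and Klf13 -1.45 in dKD against control, and the sign changed for Klf2 in Klf5 KD (-0.038), Klf10 in dKD against Nr5a2 KD (0.19), Klf9 in dKD against Klf5 KD (0.0155) and Klf17 in the interaction (-0.13). In dKD against Nr5a2 KD, where the numbers pair, the block changed no call. In the other comparisons libraries share only a number, with r between -0.203 and 0.059 for the same-numbered pairs, and not every library correlated best with its own number. There the block moved the calls over all genes from 0 to 146 lower and 107 higher in Klf5 KD, and to 288 lower and 244 higher in dKD against Klf5 KD.

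Klf5 made up 34.8% of the sum in control when all Klf genes were summed and 51.3% without division by length, and correspondingly 18.2 and 31.3% in Nr5a2 KD, while in Klf5 KD and dKD it was 22.2 and 14.9% without division by length. Its place without division by length was 1 in Nr5a2 KD and 2 in Klf5 KD, and in Nr5a2 KD it was 2 to 3 with a library left out. With a prior count of 0.5, Mettl27 replaced Gorab among the genes nearest to Klf11, and Gata1 replaced Ermp1 for Klf13.

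Over all genes, ERCC scaling gave 90 lower and 761 higher in Nr5a2 KD, 4 and 21 in Klf5 KD, 178 and 2838 in dKD, 350 and 589 in dKD against Klf5 KD, and 454 and 271 in Klf5 KD against Nr5a2 KD. Total counts gave 418 and 650 in dKD, 486 and 1064 in dKD against Klf5 KD, and 934 and 545 in Klf5 KD against Nr5a2 KD. Without the filter 69 and 45 were called in Klf5 KD and 17 and 3 in dKD against Nr5a2 KD, and with the mitochondrial covariate 373 and 282 in Nr5a2 KD. Without Klf5 KD replicate 3 the calls in Klf5 KD were 15 and 1, and without Klf5 KD replicate 2 they were 506 and 405 in dKD against Klf5 KD and 417 and 510 in Klf5 KD against Nr5a2 KD, where they were 453 and 535 without Nr5a2 KD replicate 2. Control held 2 libraries, so a comparison without 1 of them assumes that the other varies like the knockdown libraries.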
